A study of Homo sapiens with 5 samples.

Results

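Small nucleolar RNA host genes are genes whose introns carry small nucleolar RNAs (snoRNAs), short nuclear RNAs of which many direct chemical modification of ribosomal RNA. The set described here held every GENCODE v44 gene whose name is SNHG followed by a number, together with GAS5, ZFAS1 and EPB41L4A-AS1. By this rule, 31 genes were found among the 61220 genes with a listed transcript, and all 31 are annotated as long non-coding RNA genes. They had 685 listed transcripts, of which 524 had reads. Of the 31 genes, 30 had reads, 26 were tested because 2 or more libraries held 10 or more reads, and 25 had at least 100 reads over all libraries. Members were picked by name. GENCODE v44 places no intronic snoRNA in SNHG10, SNHG20, SNHG21 or SNHG22, and RefSeq lists none inside them. Genes typed as small Cajal body RNAs (scaRNAs) were left out of this search. On the same strand, the scaRNA gene SCARNA13 overlaps SNHG10 and the scaRNA gene ENSG00000252139 overlaps SNHG22.

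The snoRNA of such a gene lies in an intron and is released when the host transcript is spliced, the excised lariat is opened and the ends are trimmed back to the mature snoRNA. Box C/D snoRNAs carry short C and D boxes and guide methylation of ribose, and box H/ACA snoRNAs end shortly after an ACA triplet and guide the change of uridine to pseudouridine. The spliced exons that remain form the host RNA. Some reads here were instead assigned to transcripts that contain a whole snoRNA, as were most reads of SNHG1, SNHG25 and SNHG7. The spliced exons are polyadenylated and encode no conserved protein. In several members they begin with a pyrimidine tract like that of ribosomal protein mRNAs (a 5′ TOP) and are turned over by nonsense-mediated decay. Several members, among them GAS5, ZFAS1 and SNHG5, are known from studies of cell growth and cancer.

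RNA came from NCI-H1975 and HCC827, established human lung adenocarcinoma cell lines for which the labels name no drug or genetic change. A single RNA preparation per line, selected for poly(A) tails, was mixed by mass to give HCC827 shares of 0, 25, 50, 75 and 100%. The labels name synthetic spike-in RNAs (sequins), mix A in NCI-H1975 and mix B in HCC827. Sequin reads numbered 5475, 4678, 2830, 1269 and 0 in that order, so none was assigned in pure HCC827. Library names give the percentage of NCI-H1975 RNA first, so that 100:0 is pure NCI-H1975 and 0:100 pure HCC827, and each mixture had 1 library, made by PCR of full-length cDNA with a size selection step and sequenced on a single nanopore PromethION flow cell. Mixing makes the inner libraries intermediate by design, and no library repeated a culture, so every p-value below measures scatter of these 5 libraries about a trend and not differences between cultures.

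Total depth ran from 2932250 to 4058751 reads per library, and 2926775 to 4054073 of them were assigned to human transcripts. The mean length of the assigned transcripts fell along the series, from 2581 bases in the 100:0 library to 2180 bases in the 0:100 library. Epithelial markers fixed for the label (EPCAM, KRT7, KRT8, KRT18, KRT19 and NKX2-1) held 18747 to 42382 reads per library, each of the 6 genes had reads in all libraries, and the leukocyte markers PTPRC and CD3E had 0 reads in all 5. The fibroblast list went from 630 reads in pure NCI-H1975 to 19 in pure HCC827, nearly all of it COL1A1 and COL1A2, while DCN had 0 reads throughout. The part of these shifts in the results below was not tested except where a value is given.

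Of the 26 tested host genes, 7 rose from NCI-H1975 to HCC827 RNA, 5 fell and 14 did not pass the test. The genes that rose were GAS5, SNHG25, SNHG6, EPB41L4A-AS1, SNHG1, SNHG16 and SNHG29, and those that fell were SNHG5, SNHG14, SNHG26, SNHG9 and SNHG18. A gene was called when the slope of its log2 expression on the HCC827 mass fraction had an adjusted p under 0.05 in the edgeR quasi-likelihood test (Benjamini-Hochberg adjustment over 13492 genes). The slope is thus the log2 difference that the line gives between pure HCC827 and pure NCI-H1975 RNA. The called share of the host genes, 46.2%, was close to the 45.8% called among all tested genes (23.5% rising and 22.3% falling). The number of calls thus does not set this group apart from all genes. The all-gene count itself fell from 6175 to 4067 when the 0:100 library was left out, whereas the count of called host genes was 12 without any 1 of the 5 libraries. The median slope of the host genes was -0.007 beside -0.035 for all genes, with 13 positive and 13 negative slopes.

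**Figure D1:**
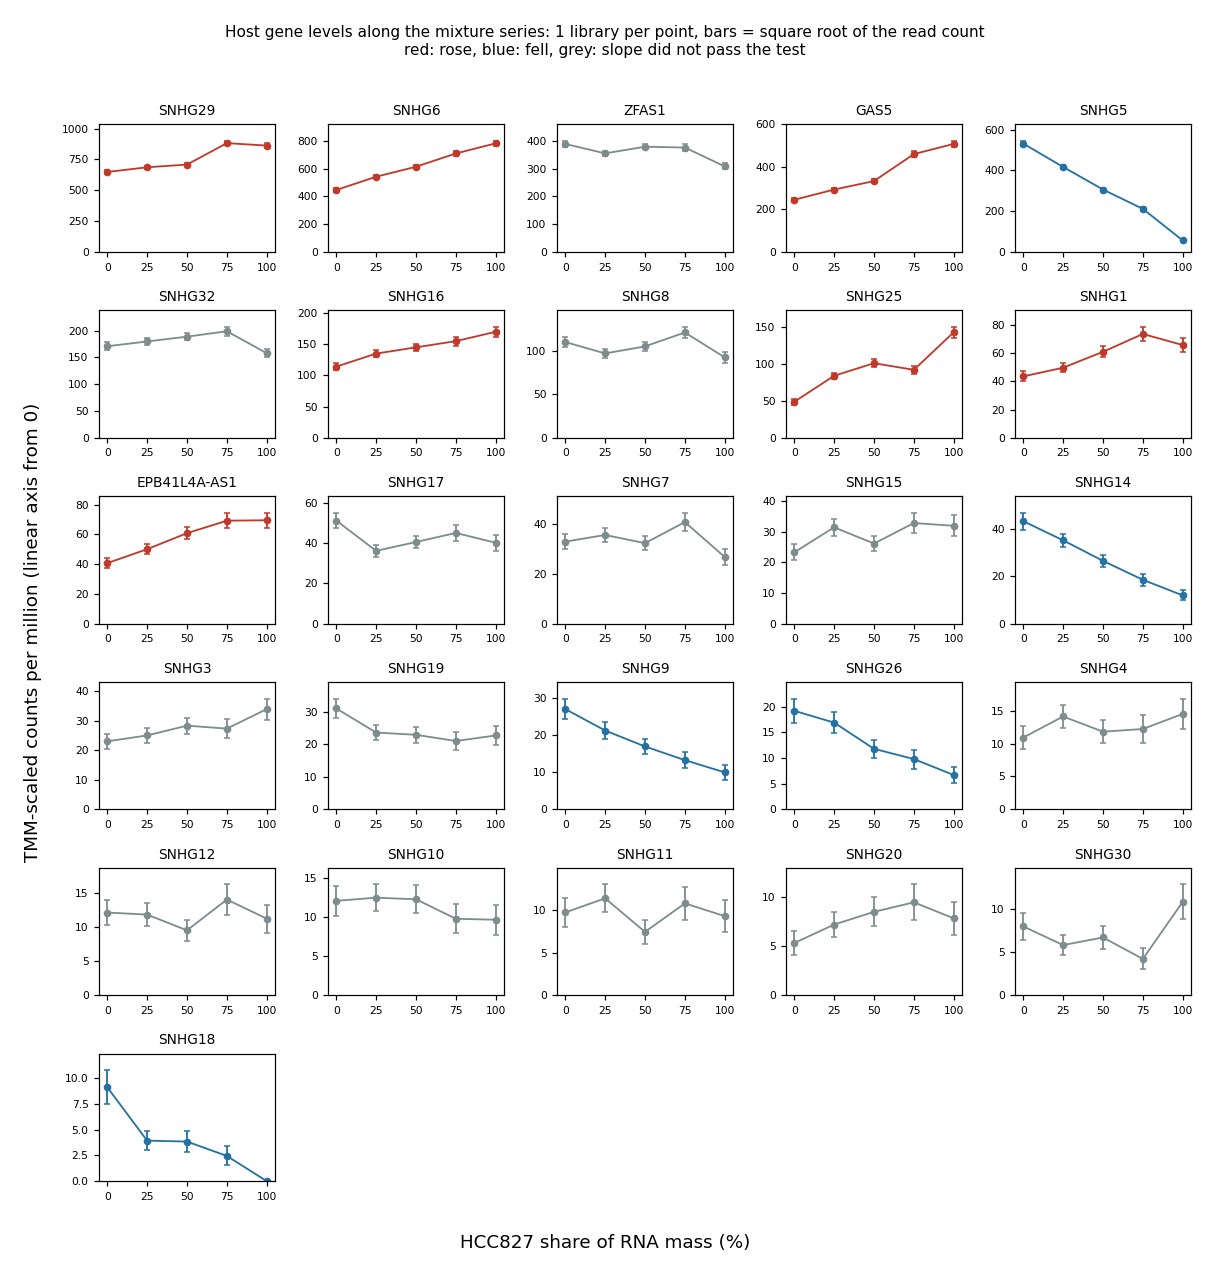
Level of each tested host gene in TMM-scaled CPM (vertical axis, linear from 0) against the HCC827 share of RNA mass in percent (horizontal axis), 1 library per point, with bars of the square root of the read count on the same scale. SNHG5 falls from 532 to 55.8 CPM, GAS5 climbs from 245 to 508 CPM, and genes such as SNHG32 and SNHG8 move up and down with no called slope.

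SNHG5 had the widest range among members with at least 100 reads. It lies on the minus strand of chromosome 6 (chr6:85650491-85678932, GENCODE v44, GRCh38) and hosts the box C/D snoRNAs SNORD50A and SNORD50B. The SNHG5 level was 532 CPM (read counts scaled to library size by the trimmed mean of M-values, TMM) in the 100:0 library, then 417, 306 and 211, and 55.8 CPM in the 0:100 library. The read counts behind these levels were 1806, 1797, 1193, 603 and 150. The level thus went down at every step, with the steepest drop at the last. The ratio of the pure libraries was 9.54-fold lower in 0:100 (95% exact binomial interval 8.07 to 11.3, counting error only), and the slope was -2.73 ± 0.36 (SE; edgeR quasi-likelihood test, Benjamini-Hochberg adjusted p = 6.44e-05). Without the 0:100 library the slope was -1.78 and still called (edgeR quasi-likelihood test, Benjamini-Hochberg adjusted p = 1.15e-05).

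The snoRNA sequences of SNHG5 are shown because this host had the widest range, with the C box (TGATGA) and D box (CTGA) in capitals. SNORD50B is at chr6:85677589-85677658 (GENCODE v44) and SNORD50A at chr6:85677294-85677368 (RefSeq), both read from GRCh38 on the minus strand of the host.
SNORD50B: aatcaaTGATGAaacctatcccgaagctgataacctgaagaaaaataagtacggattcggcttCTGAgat
SNORD50A: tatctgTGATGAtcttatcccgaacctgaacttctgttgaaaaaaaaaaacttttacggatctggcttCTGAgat
In both, the C box begins at base 7 and the D box ends 3 bases before the 3′ end. No read in any library was assigned to the SNORD50B transcript, so the values for SNHG5 describe the host RNA and not its snoRNAs.

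SNHG14, SNHG9 and SNHG26 also fell, in order over the 5 libraries. SNHG14 is the long imprinted host on chromosome 15 (chr15:24978583-25420336, plus strand) whose introns hold the SNORD116 and SNORD115 clusters. Its level was 43.3, 35.2, 26.5, 18.5 and 11.9 CPM from 100:0 to 0:100, 3.64-fold lower in 0:100 (95% exact interval 2.47 to 5.52), with a slope of -1.78 ± 0.23 (edgeR quasi-likelihood test, Benjamini-Hochberg adjusted p = 4.93e-05). Without the transcripts whose exons overlap a snoRNA, the SNHG14 slope was -1.12 and still called (edgeR quasi-likelihood test, Benjamini-Hochberg adjusted p = 0.00338).

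SNHG9, host of the box H/ACA snoRNA SNORA78 (chr16:1964895-1965509, plus strand), had levels of 27.1, 21.3, 17.0, 13.3 and 10.0 CPM. It was 2.70-fold lower in 0:100 (95% exact interval 1.74 to 4.31), with a slope of -1.40 ± 0.26 (edgeR quasi-likelihood test, Benjamini-Hochberg adjusted p = 0.00069). SNHG26, host of SNORD93 (chr7:22854126-22872952, plus strand), had levels of 19.2, 16.9, 11.8, 9.8 and 6.7 CPM. It was 2.86-fold lower in 0:100 (95% exact interval 1.68 to 5.13), with a slope of -1.49 ± 0.31 (edgeR quasi-likelihood test, Benjamini-Hochberg adjusted p = 0.00164). Both genes stepped down in every library, at low read counts that ended at 27 and 18 reads in the 0:100 library.

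SNHG18, host of SNORD123 (chr5:9546170-9550725, plus strand), was the rarest member called, with 70 reads in all, and is named after its values were seen. Its reads were 31, 17, 15, 7 and 0 in mixture order. A count of 0 allows up to 3 reads, and against that floor the gene was at least 8.19-fold lower in the 0:100 than in the 100:0 library. The 95% exact interval, which also counts the error of the 31 reads, began at 6.27-fold lower. The slope was -3.26 ± 0.78 (edgeR quasi-likelihood test, Benjamini-Hochberg adjusted p = 0.00436), and the fitted value of a gene at 0 depends on the prior count. In the comparison of 2 against 2 libraries (100:0 and 75:25 against 25:75 and 0:100) the SNHG18 slope was -2.32 with no call (edgeR quasi-likelihood test, Benjamini-Hochberg adjusted p = 0.107). Of all tested genes, 13.7% fell with a slope of at least 1 in size and 13.3% rose with one, beside 5 and 2 of the 26 host genes.

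These hosts carry snoRNAs of different classes, shown to let the boxes be compared. SNORD64 of SNHG14 (chr15:24985100-24985166, plus strand) has C and D boxes in capitals, and SNORA78 of SNHG9 (chr16:1965184-1965310, plus strand) has its terminal ACA in capitals (GENCODE v44, GRCh38).
SNORD64: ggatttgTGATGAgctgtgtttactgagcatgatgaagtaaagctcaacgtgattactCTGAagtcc
SNORA78: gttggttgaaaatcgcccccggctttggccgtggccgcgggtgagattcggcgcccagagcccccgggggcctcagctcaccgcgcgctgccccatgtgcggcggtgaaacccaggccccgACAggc
The ACA of SNORA78 stands 3 bases from the 3′ end, and the hosts of both classes fell along the series.

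GAS5, a host first described in growth-arrested cells whose RNA can bind the glucocorticoid receptor, rose in order. It lies on the minus strand at chr1:173858559-173868882. The GAS5 level was 245 CPM in the 100:0 library, then 293, 333 and 460, and 508 CPM in the 0:100 library, from 832 to 1365 reads. It was 2.07-fold higher in 0:100 (95% exact interval 1.9 to 2.26), with a slope of 1.10 ± 0.12 (edgeR quasi-likelihood test, Benjamini-Hochberg adjusted p = 1.91e-05). Under scaling by library totals the GAS5 slope was 0.69 and still called (edgeR quasi-likelihood test, Benjamini-Hochberg adjusted p = 0.000386).

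SNHG25, host of SNORD104 (chr17:64145937-64146476, plus strand), gave 48.6, 83.9, 101, 92.0 and 143 CPM. The 25:75 library was below the 50:50 library, so the gene did not run in order. It was 2.95-fold higher in 0:100 (95% exact interval 2.45 to 3.56), with a slope of 1.25 ± 0.21 (edgeR quasi-likelihood test, Benjamini-Hochberg adjusted p = 0.000358). Its slope was 0.61 once the trend of counts with transcript length was removed (edgeR quasi-likelihood test, Benjamini-Hochberg adjusted p = 0.0122). The same comparison of 2 against 2 libraries gave 0.82 and no call (edgeR quasi-likelihood test, Benjamini-Hochberg adjusted p = 0.0873).

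Sequences of snoRNAs from the rising hosts GAS5 and SNHG25 are given with the same boxes in capitals. SNORD44 is at chr1:173865968-173866028 (RefSeq; strand taken as the minus strand of GAS5) and SNORD104 at chr17:64146083-64146152 (GENCODE v44, plus strand), both read from GRCh38.
SNORD44: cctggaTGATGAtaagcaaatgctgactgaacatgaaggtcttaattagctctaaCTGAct
SNORD104: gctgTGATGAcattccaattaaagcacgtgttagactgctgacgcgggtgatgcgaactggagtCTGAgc
RefSeq places 11 snoRNAs inside GAS5, whereas GENCODE v44 lists none there.

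The other 5 rising members changed by less than 2-fold between the pure libraries. SNHG6, host of SNORD87 on chromosome 8, gave 446, 542, 614, 710 and 783 CPM, with a slope of 0.80 ± 0.11 (edgeR quasi-likelihood test, Benjamini-Hochberg adjusted p = 9.17e-05). SNHG29, host of SNORD49A, SNORD49B and SNORD65 on chromosome 17, gave 648, 686, 708, 882 and 862 CPM, with a slope of 0.48 ± 0.12 (edgeR quasi-likelihood test, Benjamini-Hochberg adjusted p = 0.00509). SNHG16, host of SNORD1A, SNORD1B and SNORD1C on chromosome 17, gave 114, 135, 145, 155 and 170 CPM, with a slope of 0.54 ± 0.12 (edgeR quasi-likelihood test, Benjamini-Hochberg adjusted p = 0.00278). SNHG6 and SNHG16 rose at every step, and SNHG29 was highest in the 25:75 library.

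EPB41L4A-AS1, host of SNORA13 on chromosome 5, gave 40.7, 50.1, 60.9, 69.3 and 69.6 CPM (slope 0.80 ± 0.17, edgeR quasi-likelihood test, Benjamini-Hochberg adjusted p = 0.00172). SNHG1, host of 7 snoRNA genes on chromosome 11 that include SNORD22 and SNORD25 to SNORD28, gave 43.6, 49.8, 61.1, 73.8 and 65.9 CPM (slope 0.71 ± 0.18, edgeR quasi-likelihood test, Benjamini-Hochberg adjusted p = 0.00587). EPB41L4A-AS1 levelled off between the 25:75 and 0:100 libraries, and SNHG1 peaked in the 25:75 library. Of the 26 tested members, 9 ran in order over the 5 libraries, all of them among the called ones, beside 28.5% of all tested genes.

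The size of the smaller rises depended on the scaling. Scaling by library totals alone moved the median slope of all genes from -0.035 to -0.44 and that of the host genes to -0.42, and the host gene calls became 3 rising and 10 falling of 26, beside 1808 rising and 5091 falling of 13492 genes. With the length trend removed, calls were 6 rising and 7 falling, beside 3054 and 2938 over all genes. Under library totals the slopes were 0.39 for SNHG6 (still called), 0.39 for EPB41L4A-AS1, 0.30 for SNHG1, 0.13 for SNHG16 and 0.07 for SNHG29, and these last 4 lost their calls (edgeR quasi-likelihood test, Benjamini-Hochberg adjusted p = 0.0649, 0.179, 0.367 and 0.65). With the length trend removed SNHG6 had a slope of 0.45, still called, and SNHG29 had 0.18 and lost its call (edgeR quasi-likelihood test, Benjamini-Hochberg adjusted p = 0.22). In the comparison of 2 against 2 libraries SNHG6 (0.59), SNHG1 (0.58), SNHG16 (0.38) and SNHG29 (0.38) had no call (edgeR quasi-likelihood test, Benjamini-Hochberg adjusted p = 0.0541, 0.0522, 0.126 and 0.118). The 10 falling calls under library totals included the 5 falls above, each of which also held without the length trend.

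Transcript length moved with these slopes over all genes, and its part in the members' slopes was tested only by that fit. The median slope was 0.73 for the 209 tested genes with a read-weighted transcript length under 500 bases, 0.31 for 1000 genes from 500 to 1000 bases, 0.19 for 2909 genes from 1000 to 2000 bases, and -0.14 for 9374 longer genes. Among the risers the read-weighted length was 221 bases for SNHG25, 588 for SNHG6 and 698 for GAS5. SNHG9, at 282 bases, fell although the median slope of genes under 500 bases was positive, and its slope was -1.94 with the length trend removed. SNHG14, at 8971 bases, was the longest member, and its slope was then -1.42.

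**Figure D2:**
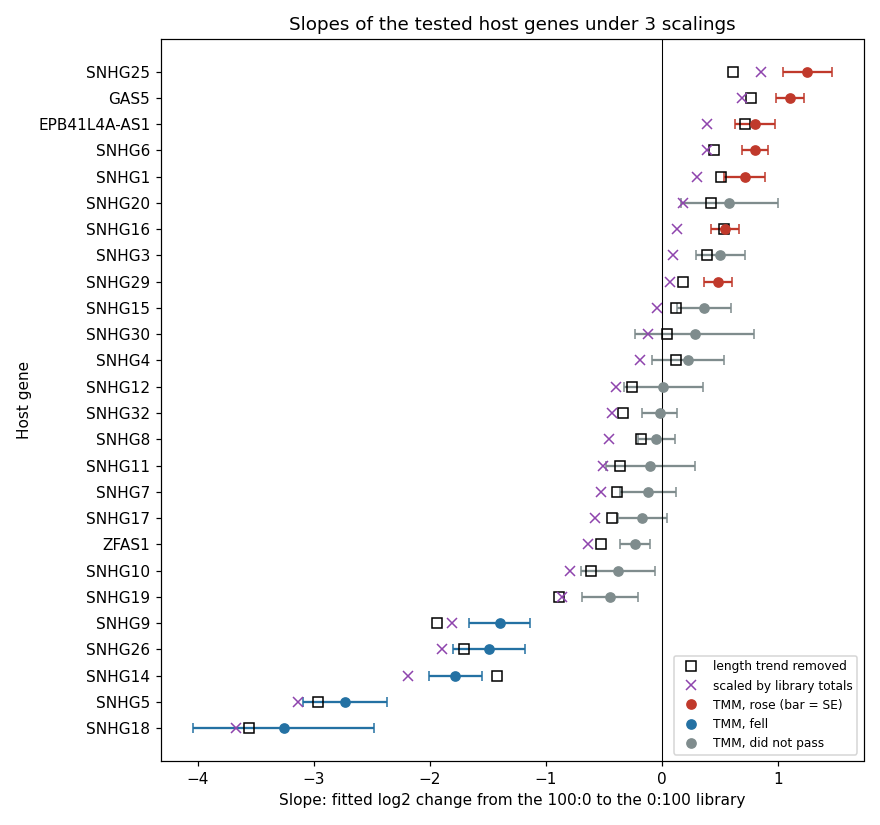
Slope of each tested host gene (horizontal axis, fitted log2 difference, pure HCC827 over pure NCI-H1975) under TMM scaling (filled circles with SE bars), scaling by library totals (crosses) and with the length trend removed (squares). The 5 falling genes lie below -1 under all 3 settings, while crosses for SNHG29, SNHG16 and SNHG3 lie near 0.

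The 14 tested members with no call included 3 of the 8 with the highest mean CPM. ZFAS1, host of SNORD12, SNORD12B and SNORD12C on chromosome 20, gave 389, 355, 379, 376 and 308 CPM and a slope of -0.23 ± 0.13 (edgeR quasi-likelihood test, Benjamini-Hochberg adjusted p = 0.173). It was called as falling under library totals (-0.64) and with the length trend removed (-0.53). SNHG32, host of SNORD48 and SNORD52 on chromosome 6, gave 171, 180, 189, 199 and 158 CPM (slope -0.02 ± 0.15, edgeR quasi-likelihood test, Benjamini-Hochberg adjusted p = 0.913). SNHG8, host of SNORA24 on chromosome 4, gave 110, 96.9, 105, 121 and 92.3 CPM (slope -0.05 ± 0.16, edgeR quasi-likelihood test, Benjamini-Hochberg adjusted p = 0.823). Under library totals SNHG32 (-0.43) and SNHG8 (-0.46) were called as falling too. ZFAS1, SNHG32 and SNHG8 were all lowest in the 0:100 library, and the signs of the SNHG32 and SNHG8 slopes turned without it (0.29 and 0.21).

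The 11 other members without a call had fewer reads. SNHG17, host of the SNORA71 family, gave 51.3, 36.2, 40.6, 45.1 and 40.2 CPM and was called as falling under library totals (-0.58). SNHG7, host of SNORA17A and SNORA17B, gave 33.0, 35.7, 32.4, 40.9 and 26.8 CPM. SNHG15, host of SNORA9, gave 23.3, 31.5, 26.2, 32.9 and 32.0 CPM. SNHG19, host of SNORD60, gave 31.0, 23.6, 22.9, 21.0 and 22.7 CPM (slope -0.45 ± 0.24), and was called as falling under library totals (-0.86) and with the length trend removed (-0.89). The 100:0 library was the highest for SNHG17 and SNHG19.

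SNHG3, host of SNORA73A and SNORA73B, gave 23.0, 25.0, 28.3, 27.3 and 33.9 CPM (slope 0.50 ± 0.21, edgeR quasi-likelihood test, Benjamini-Hochberg adjusted p = 0.0689), with the highest level in the 0:100 library. SNHG4, host of SNORA74A, gave 10.9, 14.1, 11.8, 12.2 and 14.5 CPM. SNHG12, host of SNORA44, SNORA61 and SNORD99, gave 12.1, 11.8, 9.5, 14 and 11.2 CPM. Neither SNHG4 nor SNHG12 moved in 1 direction along the series.

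SNHG10 gave 12.1, 12.5, 12.3, 9.8 and 9.68 CPM, and SNHG11, host of SNORA60, gave 9.73, 11.4, 7.45, 10.8 and 9.3 CPM. SNHG20 gave 5.31, 7.19, 8.48, 9.45 and 7.82 CPM, and SNHG30, host of SNORD7, gave 7.96, 5.8, 6.68, 4.2 and 10.8 CPM. The SNHG30 slope was 0.28 with the 0:100 library and -0.94 without it. Members under the read filter were SNHG21 with 32 reads in all, SNHG31 with 23, SNHG22 with 5, SNHG27 with 2 and SNHG28 with 0. The reads of SNHG21 were 11, 7, 8, 5 and 1 in mixture order.

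Between the pure libraries, 2 tested members were at least 2-fold higher in 0:100 (GAS5 and SNHG25) and 5 at least 2-fold lower, beside 16.2% and 18.4% of all tested genes (34.6% in either direction). No ratio of 2 libraries has a replicate check. The inner libraries were compared with the mass-weighted mean of the pure ones for the 25 members with at least 100 reads. That linear value fell inside the 95% counting interval of the measured level for 19 members at 75:25, 21 at 50:50 and 16 at 25:75, with median ratios of measured to linear of 1.01, 0.994 and 1.05. SNHG14, SNHG9 and SNHG26 kept within the interval in all 3. SNHG5 was above its line in the 25:75 library, at 211 CPM beside 175, and GAS5 was below it in the 50:50 library, at 333 CPM beside 377.

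Summed over all members, host gene reads made up 0.361% of human reads in the 100:0 library (95% Wilson interval 0.354 to 0.367), then 0.339, 0.328 and 0.337%, and 0.301% in the 0:100 library (0.295 to 0.307). Without SNHG5 the shares were 0.299, 0.295, 0.298, 0.317 and 0.296%, with intervals that overlapped between the pure libraries. SNHG5 took 17.1% of member reads at 100:0 and 1.61% at 0:100. GAS5 took 7.88% and 14.7%, SNHG6 took 14.3% and 22.6%, and SNHG29 took 20.8% and 24.9%. These are shares of reads and are not corrected for transcript length.

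Single transcripts were tested in the same way, and 159 of the members' transcripts passed the read filter. Of these, 24 rose and 45 fell, beside 33.6% of all 31758 tested transcripts (17.5% rising and 16.1% falling). The member count was 41 of 150 without the 100:0 library, beside 6626 of 30366 transcripts. Without the 0:100 library it was 40 of 159, beside 6287 of 31239. Library totals gave 12 rising and 56 falling, beside 3337 and 8642 of 31758 transcripts. With 10 reads required in every library, 22 of 94 tested member transcripts rose and 7 fell, beside 4038 and 3884 of 21179 transcripts. SNHG5 supplied most of the 45 falls. All of its 40 tested transcripts had negative slopes, from -4.05 to -1.04, and 36 of them fell. The deposited values spread reads over many similar isoforms by a rule not given in the sources used here, so the transcripts of a gene are not independent of each other.

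The SNHG5 transcript with most reads, SNHG5-225, had 330, 315, 227, 135 and 18 reads from 100:0 to 0:100 (slope -2.46 ± 0.38, edgeR quasi-likelihood test, Benjamini-Hochberg adjusted p = 6.44e-05). SNHG5-277 had 100, 124, 63, 39 and 8 reads and SNHG5-235 had 105, 104, 57, 30 and 7, with slopes of -2.43 and -2.77. In the pure libraries SNHG5-277 held 5.54 and 5.33% of SNHG5 reads, while SNHG5-225 held 18.3 and 12%. Falls with a slope of at least 2 in size were found in 27 SNHG5 transcripts (adjusted p from 6.23e-06 to 0.0436, edgeR quasi-likelihood test, Benjamini-Hochberg), of which 5 had 0 reads in the 0:100 library, and otherwise in SNHG14-213 and SNHG18-202. SNHG18-202 had 16, 10, 9, 3 and 0 reads.

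All 12 tested GAS5 transcripts had positive slopes, from 0.06 to 1.30, and 10 rose. GAS5-221 had 208, 324, 280, 383 and 324 reads (slope 1.08 ± 0.21), GAS5-218 had 93, 129, 147, 154 and 162 (1.21 ± 0.19), and GAS5-209 had 82, 140, 153, 148 and 161 (1.24 ± 0.19). Each was called, with edgeR quasi-likelihood Benjamini-Hochberg adjusted p values of 0.000486, 8.64e-05 and 4.69e-05. SNHG6-203 held 58.8% of SNHG6 reads, with 904, 1359, 1401, 1204 and 1235 reads (0.74 ± 0.13), followed by SNHG6-201 (0.64) and SNHG6-205 (0.94), and all 3 rose. SNHG25 also rose in both of its transcripts, SNHG25-202 with a slope of 1.10 and SNHG25-201 with 1.36.

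The leading transcript of SNHG29, SNHG29-204, held 9.87% of its reads, and 43 of its transcripts had reads. SNHG29-204 had 231, 281, 276, 244 and 226 reads (slope 0.35, no call), SNHG29-213 had 187, 248, 245, 255 and 227 (0.70, rose) and SNHG29-239 had 194, 267, 252, 230 and 207 (0.44, rose), and 5 of 24 tested SNHG29 transcripts rose in all. In SNHG16, SNHG16-202 (0.76) and SNHG16-201 (0.67) rose, and SNHG16-206 had a slope of -0.20 with no call. None of the 10 tested SNHG32 or 8 tested SNHG8 transcripts was called. The leading transcripts of SNHG32 (SNHG32-204, SNHG32-203 and SNHG32-209) had slopes of -0.44, -0.46 and -0.05, and SNHG8-207 and SNHG8-201 had 0.02 and -0.01, while SNHG8-203 stayed between 18.9 and 20.2 CPM.

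ZFAS1, uncalled as a gene, held transcripts of both signs. ZFAS1-207 fell, with 185, 194, 184, 118 and 84 reads (slope -0.72 ± 0.19, edgeR quasi-likelihood test, Benjamini-Hochberg adjusted p = 0.00753), as did ZFAS1-212 (-0.66) and ZFAS1-204 (-0.68). ZFAS1-202 (-0.38), ZFAS1-205 (0.33) and ZFAS1-201 (0.04) had no call. The ZFAS1-205 share of ZFAS1 reads was 12.4, 15, 14.7, 17.9 and 19.4% in mixture order. Isoform usage, the shift of transcript shares within a gene, was tested in 15 members with edgeR diffSpliceDGE, and none was called by the adjusted Simes p, beside 0.402% of 7455 genes. Before adjustment 2 of the 15, ZFAS1 and SNHG14, were under 0.05. The gene-level F test of diffSpliceDGE called 1 member, SNHG14, beside 0.858% of genes.

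**Figure D3:**
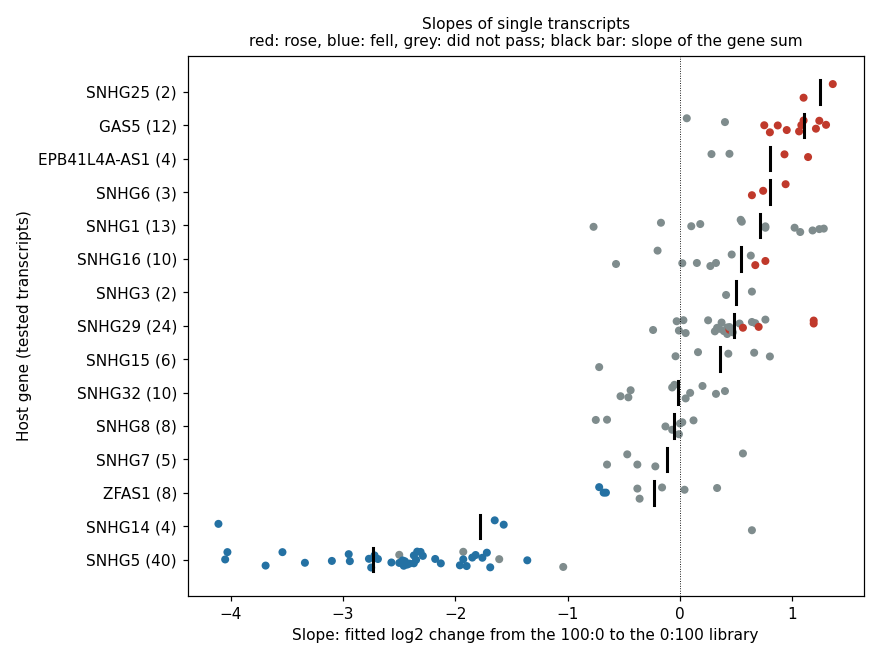
Slope of every tested transcript (points, horizontal axis, fitted log2 difference, pure HCC827 over pure NCI-H1975) for members with at least 2 tested transcripts, spread vertically for legibility, with the slope of the gene sum as a black bar. The 40 SNHG5 transcripts all lie at or below -1.04, the 12 GAS5 transcripts all lie above 0, and SNHG14 has points on both sides of 0.

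SNHG14 was the member whose transcripts differed most in slope. SNHG14-255 had 17, 18, 15, 17 and 20 reads in mixture order (slope 0.64 ± 0.47, no call), while SNHG14-276 had 22, 30, 21, 7 and 7 (-1.57, fell) and SNHG14-274 had 24, 20, 16, 10 and 5 (-1.65, fell). SNHG14-213, which contains a snoRNA gene in an exon, had 26, 15, 12, 2 and 0 reads (-4.11 ± 0.77, edgeR quasi-likelihood test, Benjamini-Hochberg adjusted p = 0.000386). SNHG14-255 thus went from 11.6% of SNHG14 reads at 100:0 to 62.5% at 0:100. For usage of SNHG14 transcripts, edgeR diffSpliceDGE gave a Benjamini-Hochberg adjusted p of 0.111 by the Simes method and 0.00697 by the F test.

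Reads were also summed by the 3′ end of the transcripts, a grouping chosen after the values were seen and given without a test. SNHG14-255, SNHG14-276 and SNHG14-274 end at the same base, position 25122467 of chromosome 15, downstream of the SNORD116 cluster (chr15:25051477-25108352) and before the SNORD115 cluster (chr15:25159221-25269858). The 47 listed transcripts with this end had 94, 100, 75, 41 and 32 reads. These sums are not scaled to depth, and the 75:25 library held 4054073 human reads beside 2926775 in the 100:0 library. The unscaled sum also went down from 75:25 onward. The other SNHG14 transcripts, which include SNHG14-213 (chr15:24979557-25036490), had 53, 52, 28, 12 and 0. In the 0:100 library all 32 SNHG14 reads were on SNHG14-255, SNHG14-276 and SNHG14-274.

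The same-strand neighbours upstream also ended at 0. SNRPN, which encodes a small nuclear ribonucleoprotein and is expressed from the paternal allele, had 330, 328, 180, 85 and 0 reads (slope -3.39 ± 0.59, edgeR quasi-likelihood test, Benjamini-Hochberg adjusted p = 5.00e-04). SNURF, its neighbour in the same locus, had 26, 41, 14, 5 and 0 reads. UBE3A, the ubiquitin ligase gene on the opposite strand, had 190, 235, 222, 114 and 119 reads and no called slope (-0.44, edgeR quasi-likelihood test, Benjamini-Hochberg adjusted p = 0.076). SNRPN and SNHG14 overlap on the same strand, so reads from shared exons cannot be told apart by gene.

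**Figure D4:**
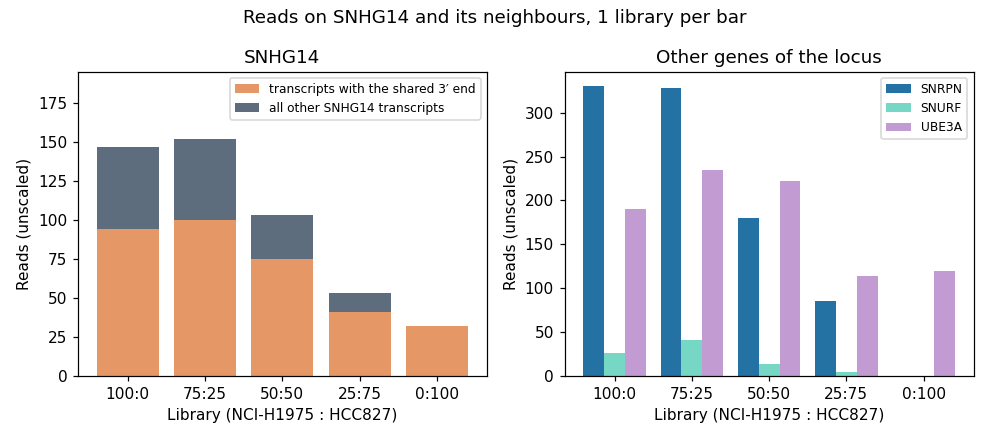
Unscaled reads (vertical axis) on SNHG14 by library (horizontal axis, ratio of NCI-H1975 to HCC827), stacked by whether the transcript has the shared 3′ end (left), and reads on SNRPN, SNURF and UBE3A (right). In the 0:100 library SNHG14 keeps 32 reads, all on transcripts with the shared end, SNRPN and SNURF have 0, and UBE3A has 119.

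Some member transcripts contain a whole snoRNA gene inside an exon, as happens when the intron that holds it is kept. Such transcripts held 10.7% of member reads in the 100:0 library (95% Wilson interval 10.1 to 11.3), then 9.93, 10.3 and 9.60%, and 9.50% in the 0:100 library (8.92 to 10.1), and the intervals of the pure libraries met at 10.1%. Members spanned a wider range than libraries did. The share was 71.3% of reads in SNHG1, 67.1% in SNHG25, 58.9% in SNHG7 and 41.2% in SNHG12, but 5.23% in SNHG29, 0.366% in SNHG6 and 0.0321% in ZFAS1. Within SNHG1 it ran from 69.3 to 73.4% over the 5 libraries, and within SNHG16 from 30.4 to 35%. SNHG25 had 76.4, 61.9, 68.8, 70.3 and 64.2%, and SNHG14 went from 38.1% to 0, with 56, 49, 33, 7 and 0 such reads.

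Without its snoRNA-overlapping transcripts SNHG1 had a slope of 0.61 and no call (edgeR quasi-likelihood test, Benjamini-Hochberg adjusted p = 0.101). Transcripts of the retained_intron type held 5.02, 5.09, 4.82, 4.87 and 5.67% of member reads, below the 7.39 to 7.75% of all human reads in each library. The mature snoRNAs lack a poly(A) tail, and the 134 listed snoRNA transcripts inside the members had 5, 11, 11, 16 and 21 reads in total. SNORD104 of SNHG25 held 4, 6, 3, 11 and 11 of these reads. At this depth, and after poly(A) selection, the libraries give no usable measure of the snoRNAs.

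Host genes with a 5′ TOP are known to be controlled together with ribosomal protein genes, so the annotated starts of the members were searched. In the RefSeq promoter table (GRCh38.p14) 27 members were found, with 1 start each. A tract was counted when the first base was C and at least 4 bases of C or T followed on the transcribed strand. By this measure 7 of the 27 starts (25.9%) held a tract, beside 4.07% of 35116 promoters in the table, 56.0% of 75 starts of cytosolic ribosomal protein genes and 14.6% of 288 starts of protein-coding snoRNA hosts. A start within 5 bases was enough for 12 members, 44.4%, beside 21.1% of all promoters.

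The 7 members were SNHG5, SNHG18, ZFAS1, SNHG32, SNHG4, SNHG12 and SNHG19. Their starts are shown for 4 of them, 25 bases before and 30 bases from the start, with the tract in capitals: SNHG5 (chr6:85678704-85678758, minus strand), SNHG18 (chr5:9546175-9546229, plus), ZFAS1 (chr20:49278617-49278671, plus) and SNHG32 (chr6:31834891-31834945, plus), all from the RefSeq table.
SNHG5: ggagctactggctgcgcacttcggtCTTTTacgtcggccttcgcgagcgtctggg
SNHG18: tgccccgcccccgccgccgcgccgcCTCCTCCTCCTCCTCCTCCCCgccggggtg
ZFAS1: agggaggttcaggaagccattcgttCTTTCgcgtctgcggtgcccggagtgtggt
SNHG32: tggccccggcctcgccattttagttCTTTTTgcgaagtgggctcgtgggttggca
SNHG5 and SNHG18 fell, and the slopes of the other 5 had no call. GAS5, a known 5′ TOP gene, has no match at the start used in this table. A match describes letters at an annotated start and shows neither use of that start nor control by it.

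Genes near the changing hosts were read for the same slope. SNHG5 had 3 tested neighbours within 1 Mb, SYNCRIP at -0.30, SNX14 at -0.23 and NT5E at 0.35, and NT5E alone passed the test, as rising. The nearest, the RNA-binding protein gene SYNCRIP, lay 6428 bases away and had 657, 863, 679, 477 and 439 reads. SNHG26 had 16 tested neighbours with a median slope of -0.67, of which 7 fell and 1 rose, beside 22.3% and 23.5% of all genes. Among these neighbours TOMM7, a mitochondrial import gene, had a slope of -0.76 and HYCC1, the nearest at 16419 bases, -0.99. The riser was IGF2BP3, with a slope of 0.52.

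SNHG9 had neighbours of both directions. Of its 70 tested neighbours within 1 Mb, 19 rose and 9 fell, beside 23.5% and 22.3% of all genes, and their median slope was 0.28. RPS2, a ribosomal protein gene and snoRNA host 54 bases from SNHG9, had 7331, 12069, 12639, 11714 and 13607 reads and rose (slope 1.2 ± 0.09, edgeR quasi-likelihood test, Benjamini-Hochberg adjusted p = 2.21e-06). The difference between RPS2 and SNHG9 was not tested. GAS5 had 7 tested neighbours with a median of -0.32, and PRDX6, a peroxiredoxin gene 369744 bases away, rose with a slope of 1.10. SNHG18 had 6, with a median of -0.32, and CMBL, 725150 bases away, fell to 0 reads in the 0:100 library with a slope of -3.42.

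Most members overlap other genes, and whether the counting used strand is not given in the sources used here. The opposite-strand partner had fewer reads than the member for SNHG6 (MCMDC2, 498 beside 10374), for ZFAS1 (ZNFX1, 949 beside 6231), for SNHG29 (LRRC75A, 2192 beside 12748) and for SNHG16 (ENSG00000284526, 724 beside 2433). It had more for SNHG14 (UBE3A, 880 beside 487), SNHG10 (GLRX5, 1793 beside 197), SNHG4 (SIL1, 1009 beside 218) and SNHG12 (TRNAU1AP, 608 beside 199). The same held for the untested SNHG31 (ABCA12, 156 beside 23) and SNHG22 (MYO5B, 443 beside 5). On the same strand RCC1 had 1166 reads beside 465 for SNHG3, SEC14L1 had 693 beside 130 for SNHG20, and MATR3 had 459 beside 218 for SNHG4, so these 3 members are uncertain. No overlapping gene with reads was found for SNHG5.

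The proteins that build snoRNPs were read from the same fit. In box C/D particles, FBL, the methyltransferase fibrillarin, had 99.1, 153, 210, 285 and 364 CPM and rose (slope 1.85 ± 0.13, edgeR quasi-likelihood test, Benjamini-Hochberg adjusted p = 2.00e-06), while NOP58, itself the host of 4 snoRNAs, had 161, 161, 133, 119 and 88.6 CPM and fell (-0.85 ± 0.14). NOP56 and SNU13 had slopes of 0.14 each with no call, which were -0.27 each under library totals. Of the 4 core proteins of this class, 1 thus rose and 1 fell, beside 23.5% and 22.3% of all genes.

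In box H/ACA particles, NHP2 rose (slope 1.07 ± 0.19, edgeR quasi-likelihood test, Benjamini-Hochberg adjusted p = 0.000482), and DKC1, the pseudouridine synthase dyskerin, NOP10 and GAR1 had slopes of -0.07, -0.19 and 0.14 with no call. GAR1 was at -0.27 under library totals. Of 11 assembly factors, 6 rose and 2 fell, beside 23.5% and 22.3% of all genes. Their median slope was 0.56, and the highest slopes were those of ZNHIT6 (1.57) and the ATPase RUVBL2 (1.51). Library totals gave 2 rising and 4 falling assembly factors, beside 1808 and 5091 of 13492 genes.

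Of 14 genes of nonsense-mediated decay, 4 rose and 1 fell. CASC3 (1.38) and SMG5 (1.08) rose, UPF2 fell with a slope of -1.19, and library totals gave 2 rising and 4 falling. Of 8 genes that act on 5′ TOP mRNAs, none rose and 3 fell, with LARP4 at -1.03. Of 4 genes of lariat debranching and decay, the debranching enzyme DBR1 fell (-0.92) and the other 3 had no call. Over these 45 genes, 12 rose and 8 fell, beside 23.5% and 22.3% of all genes. Under library totals 6 rose and 17 fell, beside 1808 and 5091 of 13492 genes.

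Protein-coding snoRNA hosts split differently by scaling. Of 201 tested, 68 rose and 31 fell with a median slope of 0.14 (49.3% called, beside 45.8% of all genes). Under library totals 51 rose and 76 fell, beside 1808 and 5091 of 13492 genes. Among these hosts, genes named as ribosomal proteins rose in 26 of 28 cases with none falling (median 1.18). The remaining 173 split into 42 rising and 31 falling. Under library totals the ribosomal protein hosts gave 23 rising and 1 falling, and the remaining ones 28 rising and 75 falling. This division was made after the values were seen. Ribosomal protein genes that host no snoRNA rose in 49 of 57 cases and fell in 3 (median 0.94). Under library totals 36 of these 57 rose and 7 fell. With the length trend removed, the medians of the ribosomal protein hosts and non-hosts were 0.85 and 0.63. Of 13 tested lncRNA hosts outside the SNHG names, 1 rose and 3 fell (30.8% called, beside 45.8% of all genes). The count of called ones was 2 without the 0:100 library.

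**Figure D5:**
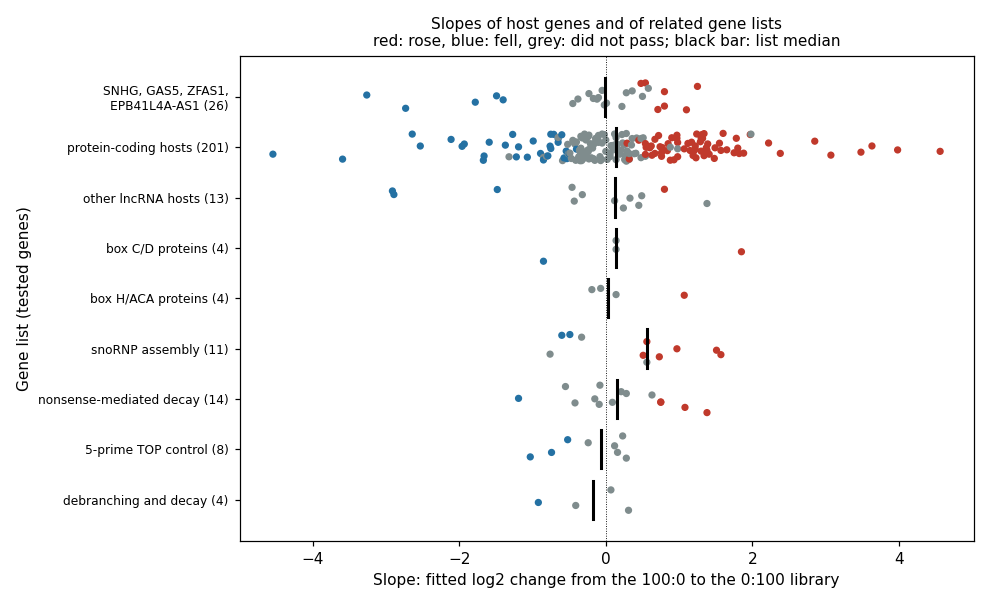
Slopes (horizontal axis, fitted log2 difference, pure HCC827 over pure NCI-H1975) of the tested host genes and of related gene lists, 1 point per gene, spread vertically for legibility, with the list median as a black bar. The SNHG set is centred near 0 with a tail to -3.26, the protein-coding hosts reach from -4.54 to 4.56, and the assembly factors have a median of 0.56.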

How the data were processed

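Each library came as 1 deposited table, in which the authors list, for every transcript, an estimated count of reads and the length in bases. The submitters' processing notes name minimap2 2.24, Salmon 1.9.0 and GRCh38, without roles. The annotation release, the division of reads between similar transcripts and any use of strand are not given in the sources used here. The expected counts were whole apart from 2 values, which were rounded, and 161 identifiers listed again were summed. Human transcripts were paired with GENCODE v44 genes (224076 of 227751, with 98.6% of human reads), and counts were summed per gene.

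Slopes on the HCC827 mass fraction were fitted over all 5 libraries with the edgeR 4.0.16 quasi-likelihood test in R 4.3.3, with TMM scaling, a minimum of 10 reads in 2 or more libraries, and Benjamini-Hochberg adjustment over all features tested at a threshold of 0.05. On simulated data the gene slope test recovered 66 of 100 2-fold changes and 98 of 100 4-fold changes. It made 6 false calls among 13155 genes. A 2-fold change can thus go without a call. DESeq2 1.42.0 served as an alternative. Isoform usage was tested with diffSpliceDGE. CPM are TMM-scaled. Intervals are at 95%, a count of 0 was taken to allow 3 reads, and PCR reads without molecular identifiers make both cover counting error only. The length trend was a lowess curve per library over genes with at least 50 reads, entered as an offset.

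Members with at least 100 reads are named with every value, and full statistics are given for the 8 of highest mean CPM and for called members with a slope of at least 1 in size. The rule for transcripts covers the top 3 of those 8 members and called transcripts with a slope of at least 2 in size, of which the SNHG5 ones are given by range. The members and lists were chosen with earlier results of these data known. Alternatives were other scalings, filters and tests, a 2 against 2 comparison, removal of the length trend, and leaving out each library.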

Additional observations from a re-analysis of the deposited data

How the results depend on the processing

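No paired analysis was possible because each ratio had 1 library, so no replicate numbers pair samples across ratios. Among the 12 called host genes no slope changed sign under any alternative. Calls were lost for 6 in the comparison of 2 against 2 libraries (SNHG25, SNHG6, SNHG29, SNHG16, SNHG1 and SNHG18), 4 under library totals, 1 with the length trend removed and 1 without snoRNA-overlapping transcripts. The cause of each change below was not tested. Comparing 2 against 2 libraries called 6 members, 2291 genes, 7 of the 45 pathway genes, 52 coding hosts and 1 other lncRNA host. Other lncRNA hosts gave 7 calls of 33 tested with no read filter, beside 6293 of 26426 genes. With 10 reads in every library they gave 1 of 6, beside 5297 of 10884 genes. Member transcripts gave 29 (22 rising, 7 falling) with 10 reads in every library, where fewer were tested, beside 7922 of 21179 transcripts. DESeq2 called 6072 transcripts, the usage F test called 1 member, and 12 promoters matched within 5 bases of the start.

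Leaving out each library in turn gave 4067 to 5859 genes, 12 to 12 members, 6287 to 10171 transcripts, 40 to 66 member transcripts, 14 to 20 pathway genes, 77 to 96 coding hosts, 2 to 4 other lncRNA hosts and 0 to 0 members called for usage. Member shares of human reads, from 100:0 to 0:100, were 0.382, 0.365, 0.357, 0.368 and 0.330% without mitochondrial transcripts and 0.286, 0.266, 0.257, 0.255 and 0.226% without SNHG29. Without SNHG5, a choice made after seeing the data, they were 0.299, 0.295, 0.298 and 0.317% up to 25:75. The snoRNA-containing share of member reads was 17.5, 16.7, 17.0, 16.9 and 16.5% when any overlap counted, 9.62, 8.53, 8.40, 8.01 and 7.15% without SNHG25, and 13.2, 12.7, 13.1, 12.3 and 12.8% with the RefSeq snoRNAs of GAS5 and SNHG5 added, also chosen after seeing the data.

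Under the alternatives run, the named slopes that changed sign were of genes without a call. Under library totals SNHG15 was -0.04, SNHG4 -0.19, SNHG12 -0.40, SNHG30 -0.12 and NOP56, SNU13 and GAR1 -0.27 each. With the length trend removed SNHG12 was -0.26, NOP56 -0.11, SNU13 -0.14 and GAR1 -0.17. In 2 against 2 SNHG32 was 0.02 and SNHG8 0.05. SNHG12 was -0.02 with no filter and -0.05 with 10 reads in every library. SNHG8 was 0.03 without snoRNA-overlapping transcripts and SNHG11 0.04 without retained_intron ones. With single libraries left out, the lowest to highest slopes of those that changed sign were -0.17 to 0.29 for SNHG32, -0.20 to 0.21 for SNHG8, -0.32 to 0.27 for SNHG17, -0.34 to 0.30 for SNHG7, -0.17 to 0.13 for SNHG12, -0.22 to 0.03 for SNHG11 and -0.94 to 0.94 for SNHG30. The signs turned without 0:100 for SNHG32, SNHG8, SNHG7 and SNHG30, without 100:0 for SNHG8 and SNHG17, without 75:25 for SNHG11 and without 25:75 for SNHG12.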
